A study of Mus musculus with 8 samples.

Results

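Lipoproteins carry triglyceride and cholesterol through plasma, and their protein coats are made largely in liver and intestine. Apob is the structural protein of VLDL and LDL, and Mttp, the microsomal triglyceride transfer protein, loads lipid onto it in the endoplasmic reticulum. Apoa1 and Apoa2 are the main proteins of HDL, Apom is a smaller HDL protein that carries sphingosine 1-phosphate, and Apoa4, Apoa5, Apoc1, Apoc2 and Apoc3 move between particles and adjust how they are lipolysed and taken up. The transcripts of these 10 genes were followed in mouse liver. They were taken as every non-control probe that the array output names for one of them, which gave 16 probes: 5 for Apob, 2 each for Apoa5 and Apoc3, and 1 for each of the other genes. The 10 genes stand among 16553 genes with a tested probe.

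Livers came from male C57BL/6 wild-type mice, 14 to 17 weeks old at the start, that ate for 4 weeks either the atherogenic (ATH) diet, rich in fat and cholesterol and containing cholic acid, or standard chow (the STD diet). There were 4 mice per diet and 1 single-color Agilent array per mouse, and no other agent or allele was given. Each diet had a slide of its own, which means that a slide effect and a diet effect cannot be told apart. Values are log2 processed signals minus the 75th percentile of their array, called scaled log2 signal, and since probes differ in how well they bind, no probe's level is set against that of another. A log2 fold change is the ATH mean minus the STD mean. The percentile itself was 0.45 log2 units higher in the ATH group and the spike-in level (10 probes) 0.14 units higher. A change of the constant subtracted from each array shifts all log2 fold changes together. Quantile normalization, used as an alternative, subtracts no constant and shifts probes unequally. Across the 31039 probes tested, scaled log2 fold changes had a median of -0.15, and 65.1% of genes were below 0. All 15 hepatocyte markers on a list of defining genes were tested. After 75th percentile scaling their summed signal, relative to its STD mean, was 0.969 to 1.07 on STD and 0.702 to 0.909 on ATH. This fall moved with the scaling: the median log2 fold change of the markers was -0.36 on that scale, -0.05 with spike-in scaling and 0.09 without scaling. The 100 brightest probes of any kind had a similar median, -0.43 on that scale and 0.01 without scaling. In whole liver, fewer cells of a type and less RNA per cell cannot be told apart.

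The probes on which the comparisons turned are shown first, because each reads only the short stretch of transcript it matches. The 60 bases of the Apoa4 probe, which gave the largest difference among the 16, are set beside those of 2 neighbouring genes, Apoa1 and Apoc3, and of Mttp, whose probe was the other to pass the test. The sequences are those of the array output, in lower case, with no part marked.

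Apoa4 probe: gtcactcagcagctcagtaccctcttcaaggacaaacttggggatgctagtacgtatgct

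Apoa1 probe: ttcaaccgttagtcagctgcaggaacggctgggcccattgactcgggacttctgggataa

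Apoc3 probe: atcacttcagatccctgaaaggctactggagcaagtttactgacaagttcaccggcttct

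Mttp probe: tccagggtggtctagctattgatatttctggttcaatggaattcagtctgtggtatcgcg

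The array design places the Apoa4 probe on the plus strand of chromosome 9 from 46199701 to 46200444 (build mm7), a span of 744 bases for 60 bases of probe, so in that build it crosses an intron. The Apoa1 probe lies on the plus strand of the same chromosome from 46187961 to 46188020, and the Apoc3 probe on its minus strand from 46191393 to 46191452. The Mttp probe lies on the minus strand of chromosome 3 from 137903223 to 137903282. All 16 probes were detected on all 8 arrays, and none had a saturated spot.

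At a false discovery rate of 5%, limma called 2 of the 10 genes, against 9.35% of all genes tested. Apoa4 was higher on the ATH diet, where 4.05% of all genes were called higher, and Mttp was lower, where 5.30% were called lower. At 1% Apoa4 alone remained, against 0.640% of genes. Counted by probe, 1 of 16 was called higher and 1 lower, against 3.06% and 4.94% of all probes. The median log2 fold change over the 10 genes was -0.22, and over all genes it was -0.14. The diets did not overlap for Apoa4 and Apoc2, which were higher on ATH (7.59% of all genes did the same), nor for Apoa2, Apoc1, Apom and Mttp, which were lower after scaling (14.6% of all genes). The remaining 4 genes overlapped between diets.

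**Figure D1:**
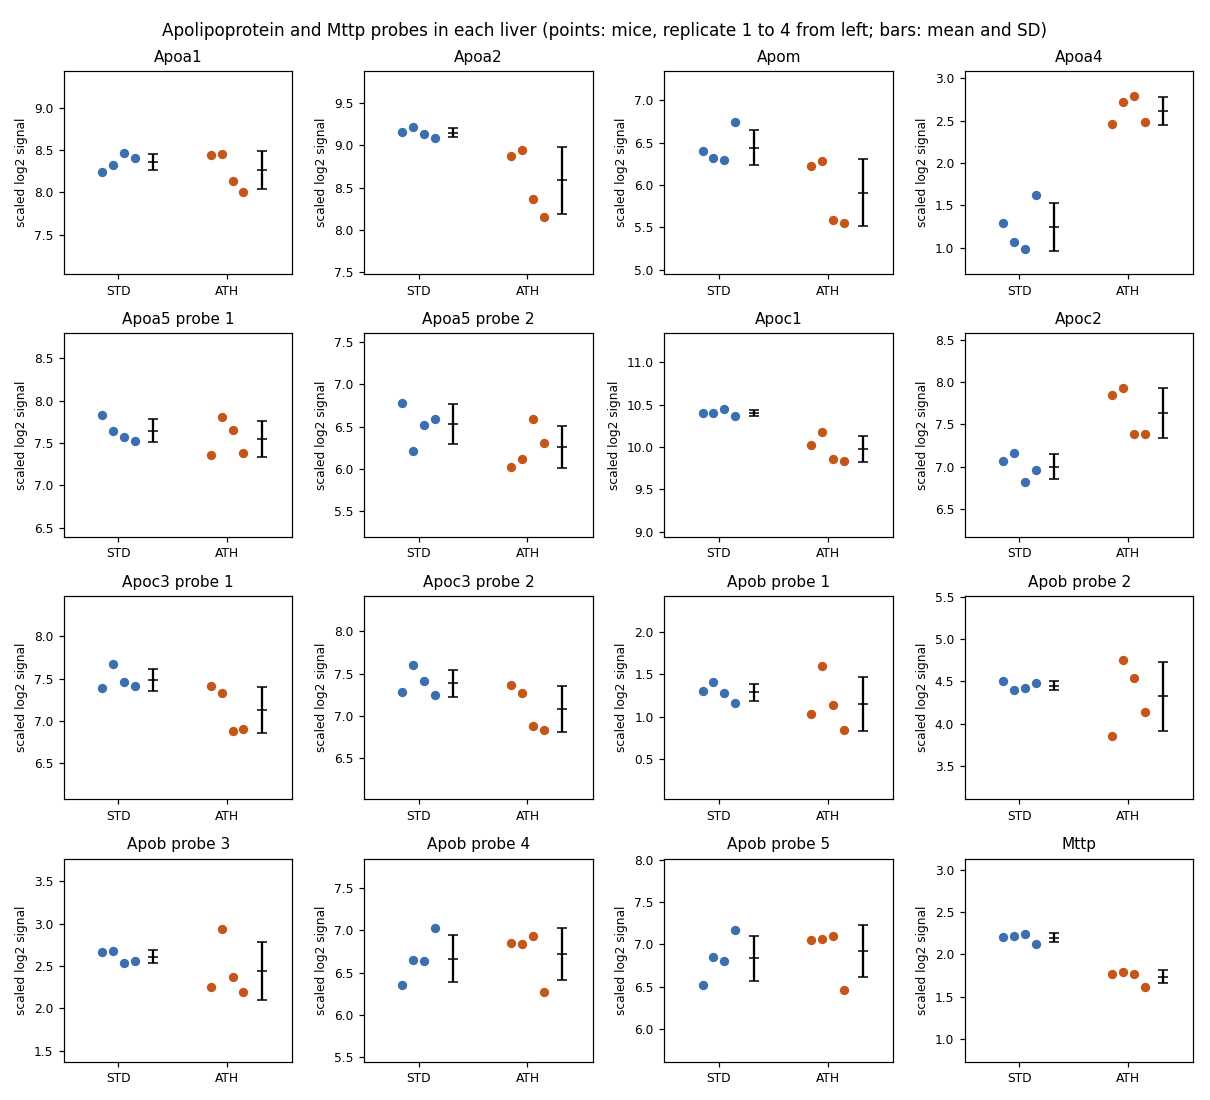
Scaled log2 signal of each of the 16 probes in the 8 livers. Points are mice (4 per diet, replicate 1 to 4 from left), the bar beside them gives the mean and SD, and every panel spans the same log2 range. The 4 ATH values of Apoa4 (2.46 to 2.79) lie above all STD values (0.99 to 1.62), those of Apoc2 are also higher, and those of Mttp are lower under this scaling and level with STD without scaling.

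Apoa4, a lipid-induced apolipoprotein made mostly by the intestine and, in mice, also by the liver, showed the largest difference. Its scaled log2 signal was 1.29, 1.07, 0.99 and 1.62 in the STD livers and 2.46, 2.72, 2.79 and 2.49 in the ATH livers. Every ATH liver was above every STD liver, and the ATH values were the closer together. The means were 1.24 ± 0.28 on STD and 2.61 ± 0.17 on ATH (SD, n = 4 each), a log2 fold change of 1.37 (SE 0.17, 95% interval 0.99 to 1.75, adjusted p = 0.0066), which is 2.59-fold higher. Under the 5 other scalings the log2 fold change was 1.45 to 1.82, and each passed 5%. The STD liver with the highest value, STD replicate 4, also stood apart for the acute-phase gene Saa1, at 10.12 against 4.92 to 5.77 in the other STD livers, a gene singled out after its values were seen. Without that array the Apoa4 difference was 1.50 (adjusted p = 0.0085). The unequal-variance test that the methods describe for these data gave Apoa4 an adjusted p of 0.069, above 5%.

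Because Apoa4 is an intestinal gene, enterocyte genes were read beside it. Of 9 enterocyte markers, 6 were tested, and Cdx2, Lct and Cdh17 were not detected. Fabp2, the intestinal fatty acid binding protein, was higher on ATH by 1.39 (adjusted p = 0.0327). Alpi, intestinal alkaline phosphatase, was lower by 0.66 after scaling (log2 fold change -0.66, adjusted p = 0.0353, and 0.0726 with the replicate block) and by 0.21 without it (-0.21). The median log2 fold change of the 6 was -0.33, and 4 of them were below 0 after scaling, as were 65.1% of all genes. Their summed signal was 0.728 to 1.28 times its STD mean on STD and 1.5 to 2.49 times on ATH, a sum carried by the bright Fabp2 probe. The part of cells of another type in the Apoa4 signal was not tested.

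Apoc2, the cofactor that lipoprotein lipase needs, was the other member whose ATH values all lay above STD. Its scaled log2 signal was 7.07, 7.16, 6.82 and 6.96 on STD and 7.85, 7.93, 7.38 and 7.38 on ATH. The 2 lower ATH livers, replicates 3 and 4, were still above the highest STD liver. The log2 fold change was 0.64 (SE 0.17, 95% interval 0.26 to 1.02), or 1.56-fold, and missed 5% narrowly (adjusted p = 0.0523). It passed 5% with spike-in scaling (0.95, adjusted p = 0.0138), hepatocyte marker scaling (0.88, adjusted p = 0.0268), quantile normalization (0.98, adjusted p = 0.00672) and no scaling (1.09, adjusted p = 0.0073), and missed it with median scaling (0.71, adjusted p = 0.052). The design places only 25 of the probe's 60 bases, on the minus strand of chromosome 7 from 17353942 to 17353966.

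The promoters of these 2 genes are shown because they belong to the 2 transcripts that did not overlap between diets in the upward direction. Each is the 250 bases before the RefSeq transcription start on GRCm38.p6, written 5′ to 3′ on the gene's strand, with a nuclear receptor half-site in capitals.

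Apoa4 promoter, chr9:46240594-46240843, plus strand: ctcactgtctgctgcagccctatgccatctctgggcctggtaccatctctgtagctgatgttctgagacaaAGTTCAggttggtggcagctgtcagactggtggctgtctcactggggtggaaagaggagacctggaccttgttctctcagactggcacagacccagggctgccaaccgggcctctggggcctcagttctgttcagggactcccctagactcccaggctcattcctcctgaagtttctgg

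Apoc2 promoter, chr7:19677942-19678191, minus strand: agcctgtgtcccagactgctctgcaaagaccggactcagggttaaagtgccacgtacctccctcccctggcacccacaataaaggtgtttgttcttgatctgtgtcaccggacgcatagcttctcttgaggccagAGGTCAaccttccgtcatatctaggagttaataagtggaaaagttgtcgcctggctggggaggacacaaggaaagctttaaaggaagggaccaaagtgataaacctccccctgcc

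The letters searched were AGGTCA and AGTTCA, on both strands (TGACCT and TGAACT on the other); they do not overlap each other. The Apoa4 promoter holds 1 AGTTCA and the Apoc2 promoter 1 AGGTCA. RefSeq promoters were listed for 8 of the 10 genes. Among these, AGGTCA also stood in an Apoa2 promoter and AGTTCA in the Apoa1 promoter, genes that did not rise with 75th percentile scaling. Of all 32851 promoter windows, 14.0% hold AGGTCA and 11.8% hold AGTTCA. A match is a description of letters only.

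Mttp was the member that passed the test downward. Its scaled log2 signal was 2.20, 2.22, 2.24 and 2.12 on STD and 1.76, 1.79, 1.77 and 1.62 on ATH. Both diets were tight and did not overlap on this scale. The log2 fold change was -0.46 (SE 0.11, 95% interval -0.70 to -0.22, adjusted p = 0.0396), 1.38-fold lower, but it rested on the scaling. It was -0.01 without scaling, -0.15 with spike-in scaling and -0.21 with hepatocyte marker scaling, none of which passed 5%. Median scaling (-0.39, adjusted p = 0.0764) and quantile normalization (-0.37, adjusted p = 0.0608) missed 5% too. Before scaling, the mean processed signal was 2145 on STD and 2127 on ATH. In the fit paired by replicate number (a block), the adjusted p was 0.0598. It also missed 5% without any one of 7 of the 8 arrays (adjusted p of 0.0612 to 0.105), and passed only without ATH replicate 2 (0.0372).

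The 5 probes of Apob were not called in any of the 20 alternatives run, nor in the reported fit. For the probe with the brightest signal, scaled log2 signal was 6.52, 6.85, 6.80 and 7.17 on STD and 7.05, 7.06, 7.10 and 6.46 on ATH. The last value, of ATH replicate 4, was the lowest of the 8, and the probe next to it in the transcript had the same pattern. These adjoining probes, from 7972247 to 7972306 and from 7972307 to 7972366 on the plus strand of chromosome 12 (mm7), had log2 fold changes of 0.06 and 0.08. The 3 Apob probes further 5′ had -0.14, -0.13 and -0.17. Over the 5 probes the adjusted p ran from 0.547 to 0.865, and the 95% intervals together reached from -0.57 to 0.52. All 5 were above 0 with spike-in scaling, with hepatocyte marker scaling and without scaling.

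The HDL proteins Apoa1 and Apoa2 had different values under the same scaling. Apoa1 was 8.25, 8.33, 8.47 and 8.41 on STD and 8.44, 8.46, 8.14 and 8.01 on ATH, so the diets overlapped. Its log2 fold change was -0.10 (95% interval -0.42 to 0.22, adjusted p = 0.674), turning to 0.21 with spike-in scaling, 0.15 with hepatocyte marker scaling, 0.31 with quantile normalization and 0.35 without scaling (adjusted p = 0.0468). The Apoa1 probe is printed at 10 spots on each array, and the SD of log2 signal over those spots was 0.033 to 0.063, and the SD between mice was 0.095 on STD and 0.22 on ATH.

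Apoa2 was 9.16, 9.21, 9.13 and 9.09 on STD and 8.88, 8.95, 8.36 and 8.15 on ATH. All ATH values were lower, and replicates 3 and 4 were the lowest. The log2 fold change was -0.56 (SE 0.19, 95% interval -0.99 to -0.13, adjusted p = 0.0951) and did not pass 5%. It kept its sign under the 5 other scalings, at -0.12 to -0.49. Apom had 6.40, 6.32, 6.30 and 6.75 on STD and 6.22, 6.28, 5.59 and 5.55 on ATH. Its pattern was like that of Apoa2, and its log2 fold change was -0.53 (adjusted p = 0.137), which became -0.08 without scaling.

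Apoc1, which slows particle uptake and inhibits lipolysis, was 10.40, 10.40, 10.45 and 10.37 on STD and 10.03, 10.17, 9.86 and 9.83 on ATH. The diets did not overlap on this scale, at a log2 fold change of -0.43 (SE 0.12, adjusted p = 0.0607). The probe was between the 2nd and 4th brightest of those tested on each array, and its processed signal before scaling was nearly level, from 593500 to 650100, a range of 1.1-fold over all 8 livers. Its log2 fold change without scaling was 0.02. The 100 brightest probes on the arrays had a median log2 fold change of -0.43 after scaling and 0.01 without it. Apoa1 and Apoa2 belong to these 100 as well, and whether probes this bright respond in proportion to their RNA was not tested.

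Apoc3, an inhibitor of lipoprotein lipase and of remnant uptake, and Apoa5, which promotes lipolysis of triglyceride-rich particles, gave no call. The brighter Apoc3 probe was 7.39, 7.67, 7.46 and 7.41 on STD and 7.41, 7.32, 6.88 and 6.91 on ATH. Only ATH replicate 1 reached into the STD range. The log2 fold change was -0.35 (adjusted p = 0.187), and -0.30 for the other probe, which overlaps the first in sequence. Without scaling they were 0.10 and 0.15. The brighter Apoa5 probe had a log2 fold change of -0.10 (95% interval -0.43 to 0.23), and the other -0.27 (-0.66 to 0.12), and both were above 0 without scaling (0.35 and 0.18).

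**Figure D2:**
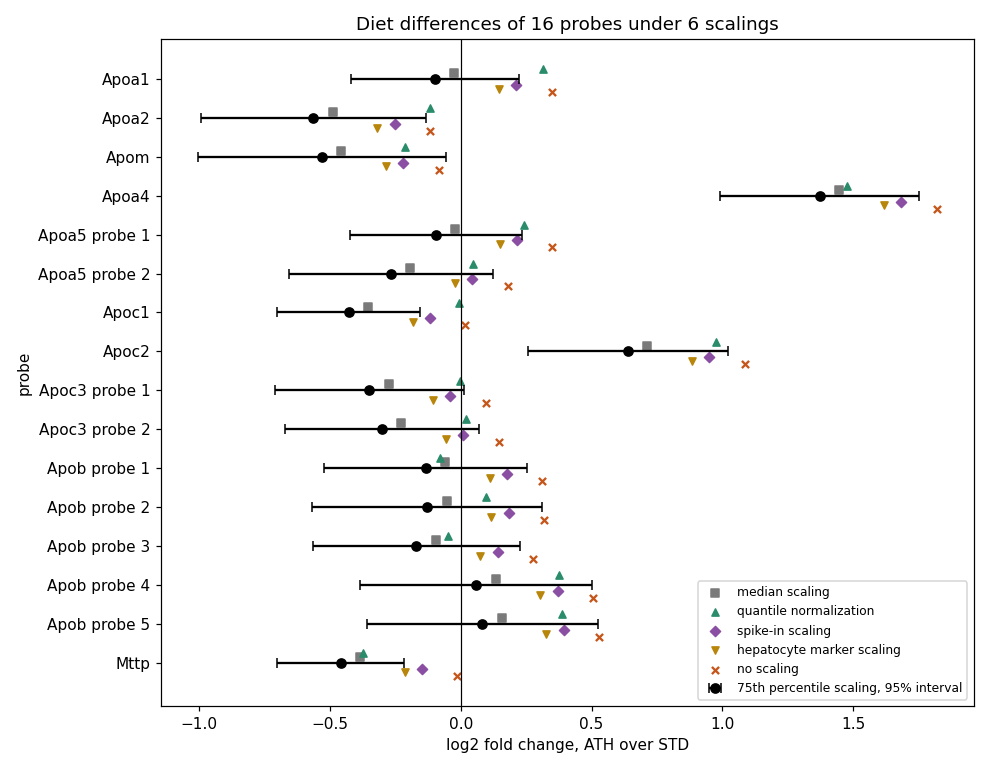
Log2 fold change, ATH over STD, of the 16 probes under 6 scalings. Black points with 95% intervals use the 75th percentile, and the other symbols the median, quantiles, spike-ins, hepatocyte markers or no scaling. Apoa4, Apoc2 and Apob probes 4 and 5 lie to the right of 0 under all 6, Apoa2, Apom and Mttp to the left, and the other 9 probes cross 0.

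Differences between genes on the same array do not depend on the scaling constant, so neighbouring genes were compared within arrays. They can depend on quantile normalization, under which the pairs were not tested. With it the log2 fold changes were 1.48 for Apoa4, 0.31 for Apoa1, and -0.002 and 0.24 for the brighter Apoc3 and Apoa5 probes. Whether the bright Apoa1 probe responds in proportion to its RNA was not tested. Apoa1, Apoc3, Apoa4 and Apoa5 follow each other on chromosome 9, and Apoc2 and Apoc1 lie close together on chromosome 7 with Apoc4 between them. For each of 7 pairs, the log2 signal of a gene minus that of its neighbour was compared between diets by a two-sided exact permutation test over 70 assignments, whose smallest possible p is 0.0286, with adjustment over the 7 pairs. Apoa4 rose relative to Apoa1 by 1.47, to Apoc3 by 1.72 and to Apoa5 by 1.47 on the log2 scale (exact p = 0.0286 and adjusted p = 0.04 for each). These 3 differences share the Apoa4 values, so they are not independent. The adjusted p is this low only because several of the 7 pairs reached the smallest p together. Relative to its STD mean, the Apoa4 minus Apoa5 difference was 1.50, 1.32, 1.54 and 1.51 in the ATH livers. In the STD livers it was -0.14, -0.17, -0.19 and 0.50. All 4 ATH livers were on the same side of all STD livers in each comparison with Apoa4. When diets were exchanged only between arrays of equal replicate number, a paired form added after the data were seen, the smallest possible p is 0.125, so no pair could pass 5%; the 3 differences with Apoa4, Apoa1 minus Apoc3 and Apoc1 minus Apoc2 each had the same sign in 4 of 4 pairs of arrays (exact p = 0.125, adjusted p = 0.175 for each).

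Among the other chromosome 9 genes the differences were smaller. Apoa1 minus Apoc3 was higher on ATH by 0.25 (exact p = 0.0286, adjusted p = 0.04), which missed 5% when probes of a gene were averaged (0.23, adjusted p = 0.08). It also missed 5% without STD replicate 2 (0.18, adjusted p = 0.08) or without any one of the ATH arrays (0.21 to 0.28, adjusted p of 0.0667 to 0.12). Apoa1 minus Apoa5 differed by -0.003 (adjusted p = 0.971) and Apoc3 minus Apoa5 by -0.25 (adjusted p = 0.367), with the diets overlapping in both. A p above the threshold does not show that these genes moved alike.

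On chromosome 7, Apoc1 minus Apoc2 was lower on ATH by 1.07 on the log2 scale (difference -1.07, exact p = 0.0286, adjusted p = 0.04). Relative to the STD mean, the values were -0.07, -0.16, 0.23 and 0.01 on STD and -1.23, -1.17, -0.93 and -0.95 on ATH. The gap between the diets was several times the spread within them, and the Apoc2 signal therefore changed unlike that of its neighbour whichever constant scaled the arrays. The nearly level Apoc1 signal described above enters this difference. Without scaling the log2 fold change was 0.02 for Apoc1 and 1.09 for Apoc2, so the difference is close to the unscaled change of Apoc2. Whether a probe as bright as that of Apoc1 responds in proportion to its RNA was not tested.

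**Figure D3:**
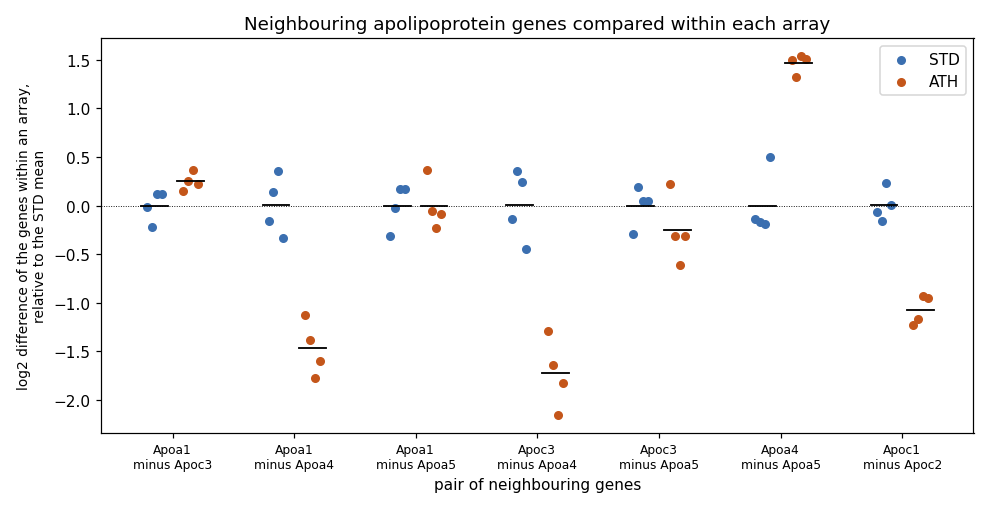
Log2 signal of a gene minus that of its neighbour on the same array, for 7 pairs, relative to the STD mean of the pair. Points are livers (4 per diet) and short lines are means; the diet means differ by 1.07 to 1.72 log2 units, with no overlap of livers, in the 3 pairs with Apoa4 and in the Apoc1 and Apoc2 pair, and the livers overlap for Apoa1 minus Apoa5.

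The ATH livers were less alike than the STD livers for these genes. The SD among ATH mice was larger than among STD mice for 15 of 16 probes, against 65.6% of all probes, with median SDs of 0.29 and 0.13. Over all probes tested the median SDs were 0.28 on ATH and 0.21 on STD. The members thus differed from all probes mainly by a smaller STD spread, and probes of the same gene are not independent. On that scale ATH replicate 4 was the lowest of the 8 arrays for 10 of 16 probes, and for 25.4% of all probes. The 75th percentile subtracted was highest on ATH replicates 4 (9.46) and 3 (9.42), against 8.81 to 9.26 on the other arrays. Before scaling, ATH replicate 4 was the lowest array only for Apoa2 (processed signal 199300) and Apom (32910). The part of the scaling in the wider ATH spread was not tested. Replicates 3 and 4 were also the ATH livers with the most macrophage signal: summed over 11 markers, relative to its STD mean, it was 3.17, 1.75, 6.92 and 7.73 in ATH replicates 1 to 4 and 0.912 to 1.06 on STD. Of those 11 markers, 7 rose at 5% (4 with the replicate block), with a median log2 fold change of 1.92, and none fell. The shares over all genes tested were 4.05% higher and 5.30% lower. Of 7 stellate cell, 5 endothelial and 5 cholangiocyte markers, 1 in each list rose and none fell. These counts moved with the scaling: without it 9 macrophage, 6 stellate cell, 4 endothelial and 3 cholangiocyte markers rose, and with hepatocyte marker scaling 1, 0, 0 and 0 did. The part of these cells in the lower values of Apoa2, Apoc1, Apoc3 and Apom was not tested.

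Genes that work with the apolipoproteins were then counted by list, under the same scaling. Over all genes tested, 4.05% were called higher, 5.30% were called lower and 65.1% were below 0, with a median of -0.14. Of 14 other apolipoproteins, HDL-associated genes and Apob mRNA editing factors, none rose and 1 fell, Pon1, the HDL paraoxonase, at -0.88 (adjusted p = 0.0487, and 0.0546 with the replicate block), which became -0.43 without scaling and passed under none of the 5 other scalings (adjusted p of 0.0707 to 0.118). Of 28 genes of VLDL assembly and secretion, none rose and 1 fell, Ces1d, a triglyceride hydrolase that supplies lipid for VLDL, at -0.90 (adjusted p = 0.0486, and 0.0569 with the block; 0.0637 to 0.102 under the other scalings), and 27 of the 28 were below 0 with a median of -0.30. That median was 0.01 with spike-in scaling and 0.14 without scaling. Of 10 genes of plasma lipoprotein remodelling, 1 rose: Lpl, the lipase that Apoc2 activates, at 2.31 (adjusted p = 0.00363). Lpl was 1.55, 1.29, 1.81 and 1.15 on STD and 3.40, 3.46, 4.07 and 4.12 on ATH. Apoc2, which missed 5% on this scale, and Lpl were both higher in all 4 ATH livers than in any STD liver. So were 7.59% of all genes. Within the ATH group their order differed: Apoc2 was higher in replicates 1 and 2 (7.85 and 7.93) than in 3 and 4 (7.38 each), and Lpl was higher in 3 and 4.

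Of 12 lipoprotein receptor and efflux genes, 4 rose and 3 fell, and 2 did each with the block. The 4 rises were 4 under each of the other scalings, while the 3 decreases were 3 with median scaling and 1 with each of the remaining 4. Abcg1 and Abca1, which pass cholesterol to HDL and Apoa1, rose by 2.28 (adjusted p = 0.00363) and 0.81 (adjusted p = 0.0137). Both passed 5% under all 6 scalings. Of 23 regulators of apolipoprotein genes, none rose and 2 fell. These counts moved with the scaling. With quantile normalization 1 rose and 1 fell, with spike-in scaling 1 rose and none fell, and without scaling 2 rose and none fell. With hepatocyte marker scaling none rose or fell. Srebf2, a transcription factor of cholesterol synthesis, was at -1.07 (adjusted p = 0.0215), and at -0.62 without scaling (adjusted p = 0.0626), with the call also lost under spike-in and hepatocyte marker scaling (adjusted p of 0.0647 and 0.0695). Creb3l3, a liver factor known to activate Apoa4 and Apoc2, was at -0.51 (adjusted p = 0.0476, and 0.0598 with the block) and at -0.07 without scaling, and passed under none of the 5 other scalings.

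**Figure D4:**
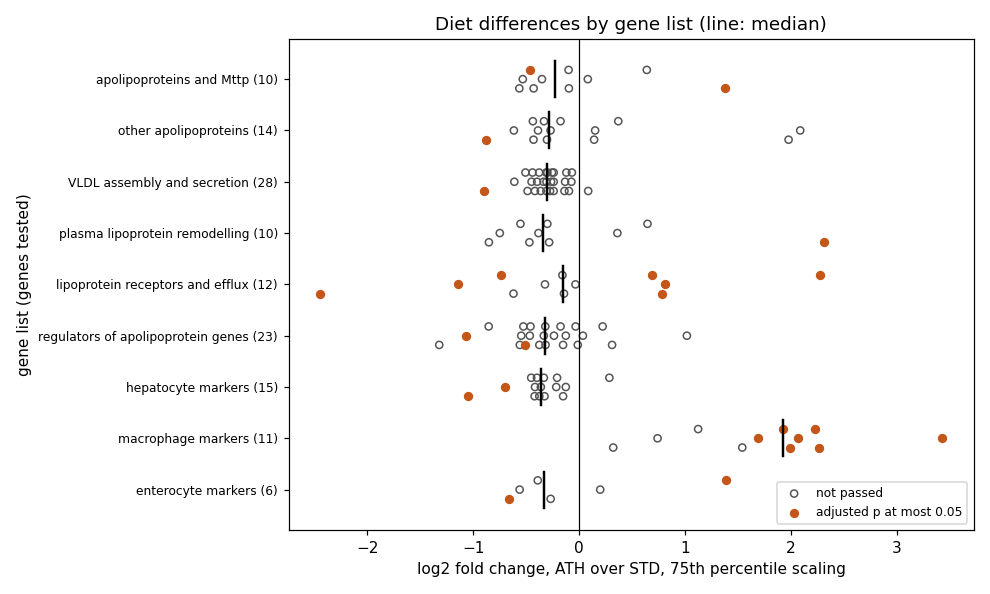
Log2 fold change, ATH over STD after 75th percentile scaling, of the genes in each list (number tested in parentheses), with the brightest probe for each gene. Filled points passed 5% by limma, open points did not, and lines are medians: -0.22 for the apolipoproteins and Mttp, -0.36 for hepatocyte markers and 1.92 for macrophage markers; without scaling the first 2 medians are 0.22 and 0.09.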

How the data were processed

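Liver RNA of 8 mice, labeled with Cy3, was measured on Agilent whole mouse genome arrays. Per the labels, the authors ran Agilent Feature Extraction 9.5; its deposited files give each spot's intensity after background subtraction, with no scaling across arrays. A GeneSpring table of log2 values, deposited as well, served as an alternative. Positions are those of the array design (mm7).

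Spots with outlier flags were left out, log2 signals were averaged per probe, and each array's 75th percentile was subtracted. Probes were kept when detected on 3 or more of a diet's 4 arrays (31053), and 31039 had a value on all arrays. Diet was tested with limma 3.58.1 in R 4.3.3 (lmFit and eBayes, Benjamini-Hochberg over all probes tested, called at 5%, where the methods describe 1%). Where the text counts genes, the brightest tested probe stands for a gene. Names came from a RefSeq table by accession (22951 of 41174 probes), symbol (6661) or synonym (3097). The other 8465 were given no gene name and could enter only the counts by probe, not those by gene. Exact tests and counts used Python 3.11.15 with numpy 2.4.6 and pandas 2.3.3, and plots matplotlib 3.10.9.

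The members, the lists and the tests were chosen with earlier results of these data known. The text names all members and, from each pathway list, the up to 4 genes with the largest change among those called, detected on 3 or more arrays in each diet and not saturated; cell type markers and Saa1 were named after their values were seen. Other genes that this rule selects are not reported here. Equal replicate numbers mark the same position on the 2 slides. Deviations of such arrays from their diet's mean had correlations of 0.1002, 0.2296, 0.1815 and 0.1766 across probes, each over 0.1. A replicate block was therefore fitted as an alternative. Arrays of unequal number were not compared, so these values do not show that the numbers pair the arrays. Tested on simulated data for the diet comparison over 31039 probes, with 200 changed by 2 on the log2 scale, the fit recovered 88.5% at 5% with 10 false calls among 187. That change is larger than the largest of the members (1.37 for Apoa4), so recovery of changes of their size was not measured. The simulated noise was independent between probes and had the same SD in both diets. The number of arrays limits the precision. Alternatives covered background correction (normexp, offset of 50), scaling (median, quantile, spike-in, 14 hepatocyte marker probes, none), the deposited table, filters, the methods' test, the block, averaging of probes and each array left out.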

Additional observations from a re-analysis of the deposited data

Results flagged for a closer look

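Dixon's ratio, the gap of the most distant liver over the range of its diet, was computed for 64 sets of 4 livers: the member probes, the 9 pathway genes that the naming rule selects and the 7 pair differences, in each diet. It passed the 95% critical value in 4 sets, and chance flags about 1 in 20. In the ATH group, ATH replicate 4 lay below the other 3 livers for both Apob probes nearest the 3′ end of the transcript among the 5, at 6.27 against 6.84 to 6.94 (ratio 0.849) and 6.46 against 7.05 to 7.10 (ratio 0.927). The difference Apoa4 minus Apoa5 was flagged in the STD group for STD replicate 4 (ratio 0.935), which was nearer to the ATH livers than the other 3, at -5.90 against -6.59 to -6.55, and in the ATH group for ATH replicate 2 (ratio 0.837), at -5.08 against -4.90 to -4.86. The 2 Apob probes adjoin each other, so their flags are not independent.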

How the results depend on the processing

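Apoa4 was called at 5% in 19 of 20 alternatives, with log2 fold changes of 1.29 to 1.82, and missed it in the methods' test (adjusted p = 0.069). Apoc2 stayed above 0 in all 20 and was called in 6. Mttp stayed below 0 in all 20 and was called in 5. The number of member genes called, 2 with the settings reported, was 5 with normexp (2 higher, 3 lower), 4 with probes of a gene averaged, 1 with median scaling, without the detection filter, at 1% and with the replicate block, and 0 with the methods' test, where 4 had an unadjusted p of at most 0.05 (6 by limma). Leaving out an array gave 1 to 4 (4 without ATH replicate 2, 1 without any other). Counted by probe, the values were the same where run. With the block the adjusted p of Apoa4 was 0.0373, and Mttp was the only member call it changed. Which genes were called differed by scaling: 2 genes passed with spike-in and hepatocyte marker scaling and quantile normalization, Apoa4 and Apoc2, and Apoa1 joined them without scaling (0.35, opposite to the reported sign). The median over member probes, -0.15, became 0.16 with spike-in scaling, 0.093 with hepatocyte marker scaling and 0.29 without scaling, moving with the median of all probes (0.16, 0.10 and 0.30). The difference Apoa1 minus Apoc3 was 0.18 to 0.29 with an array left out and 0.23 with probes averaged. Apoa1 minus Apoa5 changed sign, to 0.083 with probes averaged and -0.13 to 0.074 with an array left out. The other 5 kept sign and side of the threshold in the 9 alternatives without pairing. For the differences with Apoa4 and for Apoc1 minus Apoc2, the adjusted p reached 0.05 with an array left out. That value is the threshold itself and was counted as passing. With the replicate block, an alternative chosen after seeing the data, the 5 differences called, 0.25 (Apoa1 minus Apoc3), -1.47 (Apoa1 minus Apoa4), -1.72 (Apoc3 minus Apoa4), 1.47 (Apoa4 minus Apoa5) and -1.07 (Apoc1 minus Apoc2), had an exact p of 0.125, the smallest that 16 assignments allow, and were not called.

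Over all probes, calls at 5% numbered 2482 as reported, of which 38.2% were higher on ATH. They numbered 7361 without scaling (94.9% higher), 2933 with spike-in scaling (86.4%), 698 with hepatocyte marker scaling (66.2%), 1869 with median scaling (55.0%), 1923 with quantile normalization (54.3%) and 6391 with normexp (18.9%). There were 1322 with the block, 1085 without the filter, 22 with the methods' test and 394 to 3978 with an array left out. The cause of these differences was not tested.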
